A study of Mus musculus with 4 samples.

Results

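Imprinted genes are transcribed from a single parental chromosome, a choice that depends on a methylation mark set in the egg or the sperm. They lie in clusters that share a control region, and many act on growth: paternally expressed members such as Igf2 tend to promote it and maternally expressed ones such as Cdkn1c and Grb10 tend to restrain it. In white fat, Dlk1 marks and holds back preadipocytes, Nnat is made by adipocytes, and Grb10 dampens signalling from the insulin receptor.

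The genes described here are 42 known mouse imprinted genes outside the Peg3 domain and Mest, chosen by name and not by their values. A gene was read from the probe that carried its symbol alone, the brightest by mean over the arrays where several did, and 37 of the 42 were measured among 22180 genes. Of the measured members 19 are paternally expressed, 17 maternally expressed, and Gnas is expressed from either copy depending on the transcript. H19, Snrpn and Rtl1 were found only on probes shared with other gene symbols, and Commd1 and Zrsr1 had no probe with their symbol, so these 5 have no values here. Parental classes and clusters are those known for mouse and were not measured, since the arrays do not tell the 2 alleles apart. The parental class of several genes is documented only in brain or placenta, for example Ube3a in neurons.

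RNA of epididymal (epigonadal) white fat of fasted male mice was hybridised to 4 arrays, 1 for each group. The Irs1/2-flox control carries floxed Irs1 and Irs2, the insulin receptor substrates, and no Cre. LDKO carries the same floxed genes with Albumin-Cre, a recombinase driven by a hepatocyte promoter, and LTKO and the Irs1/2:FoxO1-flox control are the corresponding pair with floxed FoxO1 added. LDKO and LTKO mice were 4 months old, the labels give no age for the controls, and they do not say whether RNA of several mice was pooled. All 4 groups carry floxed Irs1 and Irs2, and the deletion is directed to liver and not to the fat measured.

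With 1 array per group there was no test, no standard error and no p-value, and every difference below is a difference between 2 arrays. Values are log2 signals, and a difference of 1 is 2-fold. A gene counted as past the filter on dim genes in a comparison where the higher of its arrays reached 5.15, the mean of the median gene, and it was called apart at 1.5-fold (0.585 on the log2 scale). Array medians ran from 4.68 to 4.73, and Pearson's r across genes between arrays ran from 0.986 to 0.991. In bulk fat, fewer cells of a type and less RNA per cell cannot be told apart. The tissue label was checked on fat cell genes: the median of 13 adipocyte markers lay between 10.35 and 11.09. Markers of other tissues differed between arrays. The median of 13 liver markers was 6.16 in LTKO and 4.13 to 4.58 elsewhere, that of 12 epididymis markers was 5.27 against 3.70 to 3.84, and that of 11 testis markers was 6.13 against 4.01 to 4.04. The median of 13 skeletal muscle markers was 6.11 in the Irs1/2-flox control against 4.90 to 5.07, and that of 15 mesothelial markers was 7.07 there against 6.45 to 6.81.

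Of the measured imprinted genes 2 were past both the filter and 1.5-fold in at least 1 comparison, both paternally expressed: the amino acid transporter gene Slc38a4 and Nap1l5, a gene of the nucleosome assembly protein family. In LDKO against its control 2 of the 22 members past the filter were 1.5-fold apart (9.09%), Nap1l5 higher and Slc38a4 lower, where 6.74% of all 11533 genes past the filter were. None of the 22 was 2-fold apart, against 1.2% of all genes. In LTKO against its control 1 of 20 members was 1.5-fold and 2-fold apart, Slc38a4, against 4.41% and 1.78% of all genes. Between the 2 controls 1 of 22 members was 1.5-fold apart, Slc38a4, and none 2-fold, against 4.55% and 0.77% of genes. In LTKO set directly against LDKO, Slc38a4 and Nap1l5 were both 2-fold apart in opposite directions, 2 of 22 members (9.09%), where 7.98% of genes were 1.5-fold and 2.11% were 2-fold apart. The counts rest on these 2 genes in every comparison. At 1.5-fold the members' shares lay near those of all genes, and at 2-fold they lay above them in LTKO (1 of 20 members, 5%) and in the direct comparison (2 of 22), through 1 and 2 genes. The median absolute difference of the members past the filter was 0.13 in LDKO, 0.097 in LTKO, 0.157 between the controls and 0.195 between LTKO and LDKO, against 0.178, 0.132, 0.161 and 0.182 over all genes past it. The remaining 35 measured members were in no comparison both past the filter and 1.5-fold apart. Of these, 15 reached 5.15 on no array and so could not be called, and 13 of the 37 differed by less than 0.2 in each of the 4 comparisons.

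**Figure D1:**
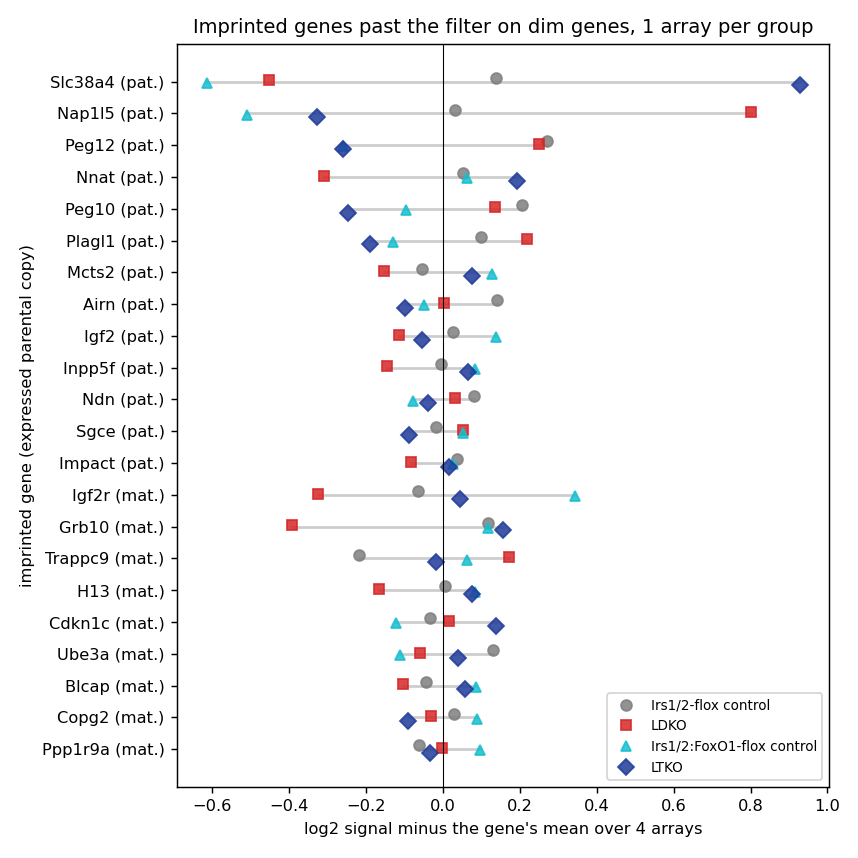
Log2 signal of each of the 22 imprinted genes whose highest array reached 5.15, minus that gene's own mean over the 4 arrays (horizontal axis), with 1 point per array and a grey line over the range, ordered by range within paternally (pat.) and maternally (mat.) expressed genes. Slc38a4 and Nap1l5 spread over 1.54 and 1.31, and Grb10 is low in LDKO alone.

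Slc38a4 encodes a sodium-coupled transporter of neutral amino acids that is abundant in liver and is also found in skeletal muscle. Its log2 signal was 5.56 for the Irs1/2-flox control, 4.97 for LDKO, 4.81 for the Irs1/2:FoxO1-flox control and 6.35 for LTKO. LTKO was the highest array, and LDKO and the Irs1/2:FoxO1-flox control were the lowest, 0.16 apart. The difference was 1.54 in LTKO (2.91-fold) and −0.59 in LDKO, each against its own control, and −0.76 between the controls. The LDKO difference rests on the reference: against the Irs1/2:FoxO1-flox control it was 0.16, the opposite sign. The LTKO difference was 0.79 against the Irs1/2-flox control. Its range over the 4 arrays exceeded that of 98.7% of genes whose highest array reached 5.15.

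The 2 arrays with the higher Slc38a4 signal were also those with more signal from other tissues. In LTKO 12 of 13 liver markers lay above its control, among them albumin (Alb) by 2.89, and their summed linear signal was 1698 against 367 to 435 in the other arrays. Of 12 epididymis markers 11 were above the control array, and of 11 testis markers 10 were. The summed linear signal of epididymis markers was 1432 in LTKO and 543 to 719 elsewhere, and that of testis markers was 1947 against 1465 to 1787. Most of the testis sum on every array came from Odf1 (10.31 to 10.66), the 1 testis marker lower in LTKO than in its control. In the Irs1/2-flox control the summed skeletal muscle signal was 1209 against 534 to 696. The part of these other tissues in the Slc38a4 values was not tested. Of the neighbouring genes on chromosome 15, Slc38a1 and Amigo2 had the sign of Slc38a4 in all 4 comparisons. Slc38a1 differed by −0.26 in LDKO, 0.43 in LTKO, −0.34 between the controls and 0.35 between LTKO and LDKO. Amigo2, on the other side, differed by −0.40, 0.05, −0.27 and 0.17 in the same order. Slc38a2 differed by −0.42 in LDKO and −0.10 in LTKO. Pced1b, beyond Amigo2, had the opposite sign to Slc38a4 in all 4 comparisons, with 0.35, −0.08, 0.06 and −0.37.

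**Figure D2:**
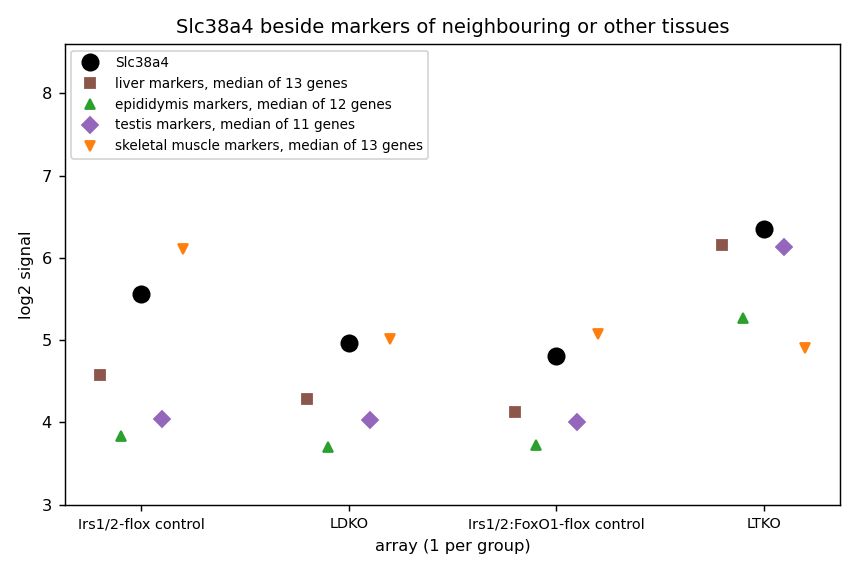
Log2 signal of Slc38a4 in each of the 4 arrays (black circles) and the median log2 signal of liver, epididymis, testis and skeletal muscle markers on the same arrays. Slc38a4 is highest in LTKO (6.35), where the liver, epididymis and testis medians are also highest, and second highest in the Irs1/2-flox control (5.56), where the muscle median is highest.

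Nap1l5 is an intronless gene that lies within Herc3 on chromosome 6. Its signal was 5.47 for the Irs1/2-flox control, 6.24 for LDKO, 4.93 for the Irs1/2:FoxO1-flox control and 5.11 for LTKO. LDKO was the highest array, and both arrays with floxed FoxO1 lay below both without it. The difference was 0.77 in LDKO (1.70-fold), or 1.31 against the other control, and −0.54 between the controls. In LTKO it was 0.18, where the gene did not pass the filter, and LTKO was 1.13 below LDKO. Herc3, its host gene, differed by 0.18 in LDKO and by 0.39 between the controls, and the next gene, Fam13a, by −0.16 and 0.18.

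The promoters of the 2 genes called apart and of Peg12 differ in their content of CpG, the dinucleotide that carries the imprinting methylation. The 250 bases before the annotated start are printed for Slc38a4 (chr15:97055957-97056206), Nap1l5 (chr6:58907127-58907376) and Peg12 (chr7:62464511-62464760), the last being the member with the clearest difference between the floxed lines described further on. All 3 are on the minus strand of GRCm38.p6, from RefSeq, with CpG dinucleotides in capitals. Slc38a4 has 3 annotated starts, and the one farthest upstream is given.

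Slc38a4: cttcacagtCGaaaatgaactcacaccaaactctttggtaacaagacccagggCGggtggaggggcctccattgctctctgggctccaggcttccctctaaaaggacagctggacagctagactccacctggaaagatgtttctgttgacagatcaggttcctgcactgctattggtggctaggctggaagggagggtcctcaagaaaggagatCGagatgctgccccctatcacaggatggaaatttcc
Nap1l5: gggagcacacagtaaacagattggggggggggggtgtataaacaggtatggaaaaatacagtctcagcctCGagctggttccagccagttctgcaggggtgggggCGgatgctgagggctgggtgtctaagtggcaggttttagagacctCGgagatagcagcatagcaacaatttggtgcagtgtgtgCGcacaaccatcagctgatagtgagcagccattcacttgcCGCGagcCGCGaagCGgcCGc
Peg12: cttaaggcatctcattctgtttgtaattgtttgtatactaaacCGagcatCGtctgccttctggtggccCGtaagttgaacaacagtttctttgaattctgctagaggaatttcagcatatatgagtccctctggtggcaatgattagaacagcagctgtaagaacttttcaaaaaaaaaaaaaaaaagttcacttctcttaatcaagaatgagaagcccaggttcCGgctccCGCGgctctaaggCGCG

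The Slc38a4 stretch holds 3 CpG, the Nap1l5 stretch 10 and the Peg12 stretch 8. At each of the other Slc38a4 starts the stretch of the same length holds 5. The hexamer TGCCGC, the core bound by the imprint-keeping zinc finger protein ZFP57 when methylated, was searched on both strands, as TGCCGC and GCGGCA. It occurs in the Nap1l5 stretch, beginning 24 bases before the start, and in neither of the others. Promoter windows were matched for 34 of the 42 listed genes, 52 windows in all. The median window of the imprinted genes held 10 CpG against 6 in all 32851 windows of the same length, with 8 for paternally and 13 for maternally expressed genes. The hexamer was in 7 of the 52 windows (13.5%), those of Calcr, Copg2, Mcts2, Meg3, Nap1l5, Plagl1 and Zdbf2, and in 8.7% of all windows. Several genes have more than 1 window, and by gene the shares were 20.6% and 9.8%. The hexamer itself holds a CpG, and the difference in CpG content was not taken into account in these shares. These matches describe sequence and are no measure of methylation or binding.

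Among genes that act on growth and insulin signalling, Grb10 had the largest difference short of the call. This maternally expressed adaptor, which inhibits the insulin receptor, had a signal of 8.70 for the Irs1/2-flox control, 8.19 for LDKO, 8.70 for the Irs1/2:FoxO1-flox control and 8.74 for LTKO. The LDKO array alone was low, by 0.50 against its own control and by 0.51 against the other, and the other 3 arrays lay within 0.04 of each other. The LTKO difference was 0.04. Its relative Grb14, which is not imprinted and also binds the insulin receptor, was 0.96 higher in LDKO and 0.48 higher in LTKO, each against its own control. Markers of other tissues also differed between LDKO and its control, 12 of 13 skeletal muscle and all 15 mesothelial markers being lower in LDKO. All 13 muscle markers and 14 of the 15 mesothelial ones were also lower in the Irs1/2:FoxO1-flox control than in the Irs1/2-flox control. The part of these tissues in the LDKO differences of Nap1l5, Grb10 and other members was not tested.

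Nnat, a paternally expressed proteolipid of the endoplasmic reticulum, showed a smaller difference of the same kind. It was 8.93 for the Irs1/2-flox control, 8.57 for LDKO, 8.94 for the Irs1/2:FoxO1-flox control and 9.07 for LTKO, so LDKO was again the lowest array. A second, dimmer Nnat probe did not share this, with 5.49, 5.53, 5.57 and 5.77 in the same order. Blcap, whose transcription unit contains Nnat, was 6.24, 6.18, 6.37 and 6.34 in that order. Over the 22 members whose highest array reached 5.15, LDKO was the lowest array for 9 (40.9%), where it was the lowest for 37.4% of 11958 such genes.

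**Figure D3:**
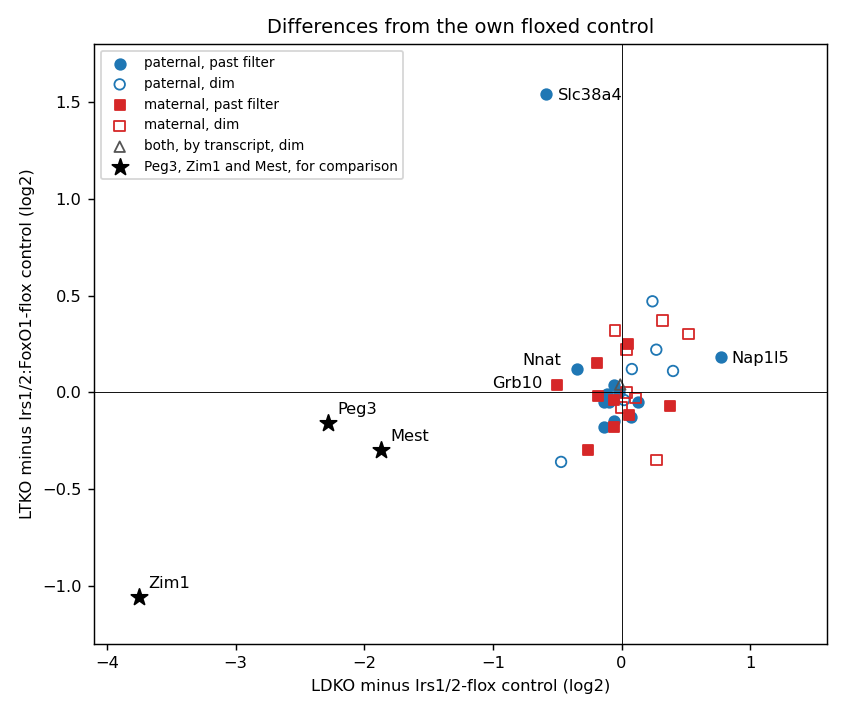
Difference of each of the 37 measured imprinted genes in LDKO (horizontal axis) and in LTKO (vertical axis), each against its own floxed control, in log2 units. Filled points reached 5.15 on at least 1 array and open points did not; Slc38a4 (−0.59 and 1.54) and Nap1l5 (0.77 and 0.18) lie outside the cloud, and Peg3, Zim1 and Mest are drawn for comparison.

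Igf2, the fetal growth factor, was 6.21, 6.07, 6.32 and 6.13 (from here on, 4 values in a row stand for the Irs1/2-flox control, LDKO, the Irs1/2:FoxO1-flox control and LTKO, in this order). Both Cre arrays were slightly below both controls, with differences of −0.14 in LDKO and −0.18 in LTKO. Igf2r, the receptor that clears IGF2, was 7.81, 7.55, 8.22 and 7.92. Each Cre array was lower than its control, by 0.26 and 0.30, but the controls were 0.41 apart, and LDKO against the other control was at −0.67. Against the own controls macrophage markers ran the same way as Igf2 and Igf2r, 11 of 12 being lower in each Cre array. Their medians were −0.353 in LDKO and −0.368 in LTKO. Elsewhere they ran the opposite way. Between the controls 10 of 12 markers were lower (median −0.196), where Igf2 differed by 0.10 and Igf2r by 0.41. In LTKO against LDKO 9 of 12 were lower (median −0.14), where Igf2 differed by 0.06 and Igf2r by 0.37. The part of macrophages in these values was not tested. Airn, the antisense RNA that silences paternal Igf2r, was 5.54, 5.40, 5.35 and 5.30, a narrow range. Cdkn1c, a cell cycle inhibitor, was 5.88, 5.93, 5.79 and 6.05, the highest being LTKO, 0.25 above its control. Plagl1, a zinc finger transcription factor of fetal growth, was 7.80, 7.92, 7.57 and 7.51, so that the pair of arrays without floxed FoxO1 lay above the pair with it. Its second, dim probe did not separate the pairs (2.63, 2.53, 2.61 and 2.33).

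In the Dlk1-Dio3 cluster all values were below the median gene. Dlk1, the preadipocyte ligand, lay between 4.72 and 4.84 in all 4 arrays. Meg3, the noncoding RNA expressed from the maternal copy, lay between 3.90 and 4.03 on its only probe not shared with another symbol. Dio3, which inactivates thyroid hormone, was 3.32, 3.56, 3.18 and 3.65, higher in both Cre arrays than in both controls by 0.24 or more.

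The Kcnq1 cluster was dim as well, except for Cdkn1c. The potassium channel gene Kcnq1 was 4.48, 5.0, 4.67 and 4.97. Ascl2, a transcription factor of placenta and stem cells, was 4.48, 4.80, 4.43 and 4.80. Both were higher in the Cre arrays than in the controls, at levels under the filter where RMA compresses differences. Tspan32, a tetraspanin of blood cells, was 3.80, 4.08, 3.37 and 3.02, and was lower in LTKO than in LDKO by 1.06 without passing the filter. The transporter gene Slc22a18 (4.80 to 4.90) and Phlda2 (3.19 to 3.30), a placental growth restrainer, were level.

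In the Snrpn-Ube3a cluster of chromosome 7, Peg12, also called Frat3, was 5.31, 5.29, 4.78 and 4.78. The 2 arrays without floxed FoxO1 were thus 0.51 or more above the 2 with it, and within each line the Cre and control arrays differed by at most 0.02. Its neighbours Mkrn3 (3.76 to 4.25), a ubiquitin ligase gene linked to puberty, and Magel2 (3.56 to 3.98) were dim, and neither had both arrays without floxed FoxO1 above both with it, though Mkrn3 differed by −0.22 between the controls and by −0.27 between LTKO and LDKO. Chrna7, a nicotinic receptor gene farther along, was 5.20, 5.20, 4.94 and 5.05, the same order of the pairs with a smaller gap. Ndn, the growth suppressor necdin, was 6.01, 5.96, 5.85 and 5.89. Ube3a, the ubiquitin ligase lost in Angelman syndrome, was 8.54, 8.35, 8.30 and 8.45 on its brighter probe. Both genes had their highest value in the Irs1/2-flox control, by 0.19 or less over LDKO, for Ube3a on this probe. The dim Ube3a probe (3.53, 2.87, 3.28 and 3.07) was 0.66 lower in LDKO. The mean of both probes put the LDKO difference of Ube3a at −0.42 in place of −0.19.

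In the Peg10-Sgce cluster on chromosome 6 no member was called apart. Sgce, the epsilon-sarcoglycan gene, was 8.32, 8.39, 8.39 and 8.25, and all arrays lay within 0.14. Ppp1r9a, the actin-binding neurabin gene, was 6.64, 6.70, 6.80 and 6.67. Peg10, derived from a retrotransposon, was 6.53, 6.46, 6.23 and 6.08, lower in the pair with floxed FoxO1. Asb4 (3.26 to 3.58) and the calcitonin receptor gene Calcr (3.48 to 3.70) were dim. On the same chromosome Copg2, a coat protein gene that overlaps Mest, was 8.77, 8.71, 8.83 and 8.65, with −0.06 in LDKO. Mest itself differed by −1.87 in LDKO, so this overlapping gene did not share that difference.

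The remaining members stand alone or in small clusters. Impact, a regulator of translation in the amino acid response, was 9.03, 8.91, 9.02 and 9.01 and had the narrowest range of the 22 brighter members. H13, a signal peptide peptidase, was 8.26, 8.09, 8.34 and 8.33. Mcts2, the retrogene within it, was 5.45, 5.35, 5.63 and 5.58. In both, LDKO was lowest, as it was for the phosphatase gene Inpp5f, with 6.18, 6.04, 6.27 and 6.25. A second, dim H13 probe was highest in LDKO (3.94, 3.98, 3.74 and 3.70), and the mean of both probes put LTKO minus LDKO at −0.02 in place of 0.24. Trappc9, of vesicle transport, was 6.01, 6.40, 6.29 and 6.21, with the Irs1/2-flox control lowest and a difference of 0.38 in LDKO. Rasgrf1, an activator of Ras, was 4.86 and 4.89 in the controls and 4.39 and 4.52 in LDKO and LTKO, below the median gene. Zdbf2 lay between 4.55 and 4.79, and Gnas, the stimulatory G protein gene, between 5.08 and 5.12 on its only probe not shared with another symbol, whose transcript is not given in the sources used here.

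By parental class the medians in LDKO and in LTKO, each against its own control, were near those of all genes. Over all measured members, the 19 paternally expressed genes had a median difference of −0.055 in LDKO and −0.009 in LTKO, and the 17 maternally expressed genes 0.037 and −0.016. The medians of all 22180 genes were 0.001 and −0.021. Between the controls the paternal median was −0.136, 13 of 19 genes being lower with floxed FoxO1. The maternal median was 0.058 with 6 of 17 lower, and that of all genes was 0.004 with 10907 of 22180 lower. Among genes past the filter, the paternal medians were −0.104 in LDKO, −0.053 in LTKO and −0.16 between the controls. The maternal medians there were −0.062, −0.04 and 0.079, and those of all genes −0.046, −0.032 and 0.03. None of the 9 maternally expressed members past the filter in LDKO, or of the 9 in LTKO, was 1.5-fold apart. Of the paternally expressed ones 2 of 13 in LDKO and 1 of 11 in LTKO were, namely Slc38a4 and Nap1l5, beside 6.74% and 4.41% of all genes. With so few members past the filter, these counts do not set the classes apart.

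A pairwise pattern was looked for after the values had been seen: a member was counted where both arrays of a pair lay above both of the other by at least 0.2. Peg12, Tspan32, Nap1l5, Peg10 and Plagl1, 5 of the 37 measured members (13.5%), were higher in the 2 arrays without floxed FoxO1, where 2.97% of all genes were. None was higher in the 2 arrays with it, against 2.59% of genes. Of these 5, 4 are paternally expressed, and only Tspan32 stayed below 5.15 on every array. Peg12 and Nap1l5 reached 5.15 only on the arrays without floxed FoxO1, where the pattern has them high, so reaching it lends the pattern no support. Peg10 and Plagl1 reached it on all 4 arrays. The floxed FoxO1 alleles, the mice and any difference in strain background between the lines cannot be told apart. Ascl2, Kcnq1 and Dio3 were higher in both Cre arrays, 3 of the 37 members (8.11%) against 1.67% of genes. Rasgrf1 was higher in both controls, 1 of the 37 (2.70%) against 1.89%. None of these 4 reached 5.15 on any array.

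**Figure D4:**
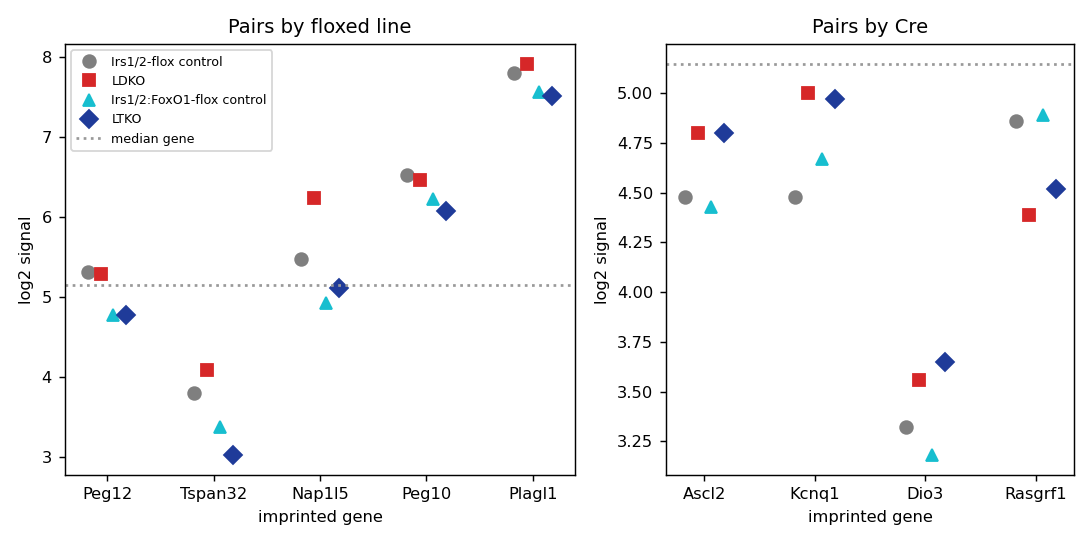
Log2 signal in each of the 4 arrays of the imprinted genes that separate the arrays into pairs, by floxed line on the left and by Cre on the right, with the level of the median gene (5.15) as a dotted line. Peg12 shows 5.31 and 5.29 against 4.78 and 4.78, and the 4 genes on the right lie below the dotted line.

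Among imprinted genes outside the set, Peg3 differed by −2.28, Zim1 by −3.75 and Mest by −1.87 in LDKO, while Usp29 of the Peg3 domain, dim at 2.86 to 3.08, differed by 0.11. None of the 37 members differed by more than 0.77 there. In LTKO against its control Zim1 differed by −1.06, Mest by −0.30, and Peg3 and Usp29 by −0.16 each. Of 49 further genes reported as imprinted in some tissue or lying in imprinted regions, 45 were measured and 31 passed the filter in LDKO. Of these, 3 were 1.5-fold lower and none higher: the chloride channel Ano1 by −0.76, the cyclase Qpct by −0.68 and the pyruvate dehydrogenase kinase Pdk4 by −0.64. In LTKO none of 30 was 1.5-fold apart, and the shares of all genes apart were 6.74% in LDKO and 4.41% in LTKO.

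Factors that maintain imprints showed no difference of 1.5-fold. Of 14 measured, 9 passed the filter in LDKO and in LTKO. Differences over all 14, dim ones included, ran from −0.24 to 0.28 in LDKO and from −0.28 to 0.23 in LTKO. The median of the 9 past the filter was −0.185 in LDKO and −0.029 in LTKO. That of all genes past it was −0.046 and −0.032. The largest LDKO differences among the 9 were those of the zinc finger gene Zfp445 (8.05, 7.81, 8.03 and 8.05), the CTCF paralogue Ctcfl (5.46, 5.23, 5.49 and 5.21) and the corepressor gene Trim28 (7.33, 7.12, 7.45 and 7.47). Of 15 measured genes of the insulin-like growth factor axis, among them Igf2, Igf2r and Grb10, 14 passed the filter in LDKO, where Grb14 was higher and the binding protein Igfbp6 was 0.74 lower, and none of 14 was 1.5-fold apart in LTKO. The same shares of all genes, 6.74% and 4.41%, stand beside these counts.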

How the data were processed

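The authors deposited log2 signals per probe set. Affymetrix Expression Console and RMA were used, per the submitters' processing notes, and neither their versions nor which arrays were normalized together are known from the labels. RMA corrects background, brings all arrays to the same distribution and sums up the probes of a set, so it removes shifts common to all genes and compresses differences of dim probes. RNA was cleaned on columns with DNase and labelled as biotinylated single-stranded DNA, per the labels' protocols.

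Of 41345 probes, 23521 have 1 gene symbol, 1814 several and 16010 are unnamed here. Old symbols were replaced by way of their gene identifiers with those of GRCm38.p6. A gene was its brightest single-symbol probe by mean over the 4 arrays. Differences were taken between arrays as deposited and called at 1.5-fold among genes whose higher array reached the median gene. All measured members are named, and those whose mean reaches the median gene are given on all 4 arrays. Other lists give up to 3 genes by size. The 4-array values of Peg12, Dio3, Kcnq1, Ascl2, Tspan32 and Rasgrf1, and the neighbouring genes, were chosen after the values were seen. The members, 14 lists and thresholds were chosen with earlier results of these data known. Alternatives were another threshold, filter, probe rule, normalization and reference array. Steps were tested on simulated data. Python 3.11.15, numpy 2.4.6, pandas 2.3.3, statsmodels 0.14.6 and matplotlib 3.10.9 were used.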

Additional observations from a re-analysis of the deposited data

Results flagged for a closer look

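Slc38a4 was the only imprinted gene of the set called apart in opposite directions in the 2 Cre lines, each against its own control. The LTKO difference exceeded the LDKO difference by 2.13 on the log2 scale. With 1 array per group this difference was not tested, and −0.59 in LDKO became 0.16 against the other control.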

How the results depend on the processing

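No paired analysis was possible because each group has 1 array and no test was run. A value was taken as unmoved where it shifted by less than 0.161, the median absolute difference between the 2 controls. With a threshold of 2-fold the counts of members apart became 0 in LDKO and 0 between the controls, and with a filter set to the 70th percentile of genes they became 0 in each of the 4 comparisons, since Slc38a4 and Nap1l5 are not bright enough to pass it. With the mean of both controls as reference the LDKO count was 1, Nap1l5 alone. The LDKO count stayed at 2 against the other control but held Nap1l5 and Igf2r (−0.67), while Slc38a4 turned to 0.16. The paternal median in LDKO was 0.125 against the other control, and the other 39 of 40 medians, which ran from −0.16 upward, were unmoved. Since 0.161 exceeds the size of every median in the main setting, a change of sign could count as unmoved. The maternal LDKO median went from 0.037 to −0.062 past the filter. The paternal one went from −0.055 to 0.037 with the mean of both controls. The medians counted as unmoved thus do not show that their signs held. Of 592 single-gene values, 1 reversed, that of Slc38a4, and 43 others moved: 29 with the other control, 10 with the mean of both controls, 4 with the mean of all probes, and none with repeated quantile normalization or a loess curve (span 0.3) removed. Of the counts by pairs, with settings chosen after seeing the data, a gap of 0.4 left 2 members higher without floxed FoxO1 and none in the 3 other patterns, and a gap of 0.1 gave 2 higher with it. Past the filter the Cre patterns held none. Having 1 array a group bounds what all of these values can show.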
